A study of Aspergillus nidulans with 6 samples.

Results

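The emericellamide genes of the filamentous fungus Aspergillus nidulans are described here in RNA-seq libraries of an mcrA-deleted strain and of a strain with mcrA intact (WT). The members are 6 of the 10983 features counted, taken by their locus numbers: easA (AN2545), AN2546, easB (AN2547), easC (AN2548), easD (AN2549) and the flanking AN10325. They were chosen by their read counts in these same libraries, for the difference between the strains, so that difference is given as a description, and no test of it is used as evidence. The mcrA-deleted group is strain LO8158 (genotype mcrA-), which the labels say carries a mutation that turns on the making of secondary metabolites, with 3 libraries. The WT group is strain LO1362 (genotype mcrA+), also with 3. Each was grown from 1000000 spores in 150 ml of glucose minimal medium with uridine, uracil, pyridoxine and riboflavin for 1 day at 37 °C, and directional libraries were made from polyadenylated RNA. Each genotype is 1 strain, so the deletion cannot be told apart from any other difference between the strains. The labels do not say that replicates came from separate cultures, so the spread between libraries may be technical.

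Emericellamides are antibiotic cyclic depsipeptides in which a polyketide chain is joined to a peptide. In the known pathway of this fungus, the polyketide synthase EasB makes the chain, the acyl-CoA ligase EasD activates it, the acyltransferase EasC hands it on, and the nonribosomal peptide synthetase EasA adds the amino acids and closes the ring. Genes of such a pathway lie side by side in fungal genomes and are often silent in laboratory culture. The gene mcrA encodes a zinc-finger protein described as a negative regulator of many metabolite clusters.

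Depth lay between 3374534 and 4926520 counts in the mcrA-deleted libraries and between 4739323 and 6051839 counts in the WT libraries. The feature of mcrA itself (AN8694, from background knowledge of its locus) had 280, 422 and 273 counts in mcrA-deleted replicates 1 to 3 and 674, 903 and 655 counts in WT replicates 1 to 3, so it separated the labelled genotypes but was not empty in the deletion strain. WT replicate 3 stood apart from the other libraries on the second principal component of log2 levels (-38.04, against -3.10 to 14.29 in the mcrA-deleted libraries and 8.86 and 18.95 in the other WT libraries). Mitochondrial features took 1.06% of the counts of mcrA-deleted replicate 1 and at most 0.159% in the other 5 libraries. The fold changes of the eas genes and the cluster's share of all counts are also given without these libraries. Levels per length and profile distances are given with all libraries only.

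The 6 members lie on chromosome VII, in the coordinates of the deposited files (A. nidulans FGSC A4; no source used here states the annotation release). Together they span 45776 bases, from 4288441 to 4334216. In chromosome order easA (4288441 to 4309384), AN2546 (4311591 to 4312390) and easB (4312867 to 4320710) lie on the minus strand, easC (4321840 to 4323432) on the plus strand, easD (4323822 to 4326107) on the minus strand and AN10325 (4331753 to 4334216) on the plus strand. The easB and easC features start 1129 bases apart on opposite strands and point away from each other. The easC and easD features point towards each other and end 389 bases apart. AN2550, a feature that is not a member, lies between easD and AN10325, 3061 bases from easD. No member overlapped another annotated feature. The files give 1 count per feature and no position of reads within it.

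The summed counts of the cluster were much lower in WT than in the mcrA-deleted strain. WT was not silent for every member: in WT replicate 3 easD had 80 counts and easB had 59. AN2546 had 1 count over the mcrA-deleted libraries. The 6 members together held 3650, 4629 and 5918 counts in mcrA-deleted replicates 1 to 3, and 28, 92 and 169 counts in WT replicates 1 to 3. As a share of all counts this was 0.112% ± 0.0203 in the mcrA-deleted libraries and 0.00188% ± 0.0015 in the WT libraries (SD, n = 3 each). The mcrA-deleted mean was 0.114% without mcrA-deleted replicate 1, and the WT mean was 0.00106% without WT replicate 3. The exact binomial 95% intervals, which cover counting error only, were 0.0913% to 0.0967% in the lowest mcrA-deleted library and 0.00301% to 0.0041% in the highest WT library. In bulk RNA, fewer hyphae expressing a gene and less RNA per hypha cannot be told apart.

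The polyketide synthase gene easB was the member with the most counts in the mcrA-deleted libraries. It stood at 398.1, 344 and 506.2 CPM (counts per 1000000 counts, scaled for composition) in mcrA-deleted replicates 1 to 3, and at 2.83, 5.62 and 14.3 CPM in WT replicates 1 to 3. All 3 mcrA-deleted libraries lay above all 3 WT libraries, and the lowest of them was 24.1 times the highest WT level. By number of counts easB ranked 440th, 503rd and 347th of all features in the mcrA-deleted libraries, and 7161st, 6741st and 5767th in the WT libraries.

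The acyl-CoA ligase gene easD had the steadiest level within the mcrA-deleted group. It stood at 343.2, 339.2 and 406.9 CPM in mcrA-deleted replicates 1 to 3, and at 1.96, 7.93 and 19.4 CPM in WT replicates 1 to 3. Its highest level was 1.2 times its lowest in the mcrA-deleted libraries and 9.88 times its lowest in the WT libraries.

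The acyltransferase gene easC had the fewest counts of the 4 eas genes in WT, where easA was lower per length, and had the largest fitted fold among them. It stood at 132.7, 135.5 and 181.6 CPM in mcrA-deleted replicates 1 to 3. In WT replicates 1 to 3 it had 0, 4 and 8 counts, or 0, 0.661 and 1.94 CPM. The lowest mcrA-deleted library was 68.5 times the highest WT library.

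The peptide synthetase gene easA was the eas gene that varied most within the mcrA-deleted group. It stood at 167, 77.6 and 101.6 CPM in mcrA-deleted replicates 1 to 3, and at 1.31, 0.992 and 5.33 CPM in WT replicates 1 to 3. The groups did not overlap, but mcrA-deleted replicate 1 was the highest library for easA and the lowest for easC.

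AN2546, which lies between the polyketide synthase and peptide synthetase genes, had 1 count in the whole series, in mcrA-deleted replicate 2. Its other 5 libraries held 0 counts. A count of 0 over a group allows up to 3 counts, which is 0.203 CPM in the WT group. The mcrA-deleted group held 1 count, so the groups of AN2546 cannot be compared at this depth. It did not follow the genes on either side of it to a level that these libraries could show.

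AN10325 had 10, 30 and 76 counts in mcrA-deleted replicates 1 to 3 and none in any WT library. Its level was 2.86, 5.85 and 15.6 CPM in the mcrA-deleted libraries, far below those of the 4 eas genes. Against the floor of 3 counts over the WT group, its mean level over the mcrA-deleted libraries was at least 39.8-fold higher. Such a bound allows for counting error in WT only, and not for the spread between the mcrA-deleted libraries. That bound was 21.4-fold without mcrA-deleted replicate 3, which held 76 of its 116 counts, and 23.5-fold without WT replicate 2, the deepest library.

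**Figure D1:**
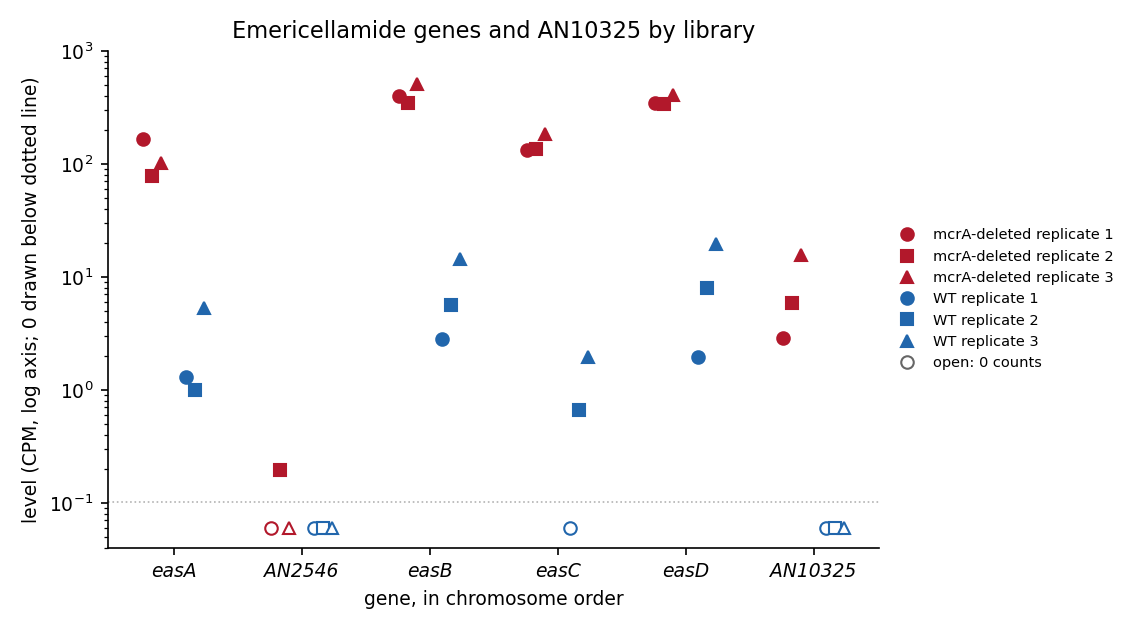
Level of each member in each library, in CPM on a log axis, with genes in chromosome order, the mcrA-deleted libraries left of the WT libraries for each gene and open symbols for 0 counts. For the 4 eas genes every mcrA-deleted point lies above every WT point, while AN2546 has a single point above 0.

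The fitted contrast puts these differences on one scale. The log2 fold change of mcrA-deleted over WT was 7.47 for easC (SE 0.508), 5.80 for easB (SE 0.523), 5.58 for easA (SE 0.572) and 5.24 for easD (SE 0.628). All 5 members with enough counts to be tested passed an adjusted p under 0.05 as higher in the mcrA-deleted strain in edgeR's quasi-likelihood test across 7852 features, where 16.1% of all tested features were called higher. In the same 5 the groups did not overlap, as they did not, in that direction, in 24.9% of all tested features. These counts describe how the members were picked and are not evidence about them. Only easB reached the filter's level, 2.10 CPM, in all 3 WT libraries; the other 4 were tested because of their mcrA-deleted libraries, and AN2546 was not tested.

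Within WT, the 4 eas genes shared their highest library. WT replicate 3 was 3.38 times the mean of the other 2 WT libraries for easB, 3.92 times for easD, 4.64 times for easA and 5.86 times for easC. A ratio of at least 3 in that library was seen in 306 of the 7852 tested features, or 3.90%, and in 143 of the 1265 called higher, or 11.3%. WT replicate 1 was the lowest for easB, easC and easD, and WT replicate 2 for easA, which had 6 counts in each of those 2 libraries. Even in WT replicate 3 the eas genes stayed well below the mcrA-deleted libraries, and easA came closest, with a lowest mcrA-deleted level of 14.6 times its level there. Without WT replicate 3 the log2 fold changes were 8.55 for easC, 6.58 for easB, 6.64 for easA and 6.13 for easD, and without mcrA-deleted replicate 1 they were 7.55, 5.83, 5.21 and 5.27.

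Per length of feature, the eas genes kept one order in every mcrA-deleted library. Levels in CPM per 1000 bases of genomic span, which includes introns, were 158.8 ± 16.6 for easD, 94.1 ± 17.3 for easC, 53.0 ± 10.5 for easB and 5.51 ± 2.21 for easA (SD, n = 3). AN10325 was at 3.28 ± 2.70 on that scale. The order easD, easC, easB, easA held in each of the 3 mcrA-deleted libraries, and the ranges of neighbouring eas genes did not overlap. The eas features run from 1593 bases (easC) to 20944 bases (easA), and the part of feature length in this order was not tested. AN10325 stood below easA in mcrA-deleted replicates 1 (1.16 against 7.97) and 2 (2.37 against 3.70) but above it in replicate 3 (6.32 against 4.85). In WT the mean levels per 1000 bases were 4.27 ± 3.87 for easD, 0.967 ± 0.762 for easB, 0.544 ± 0.618 for easC and 0.121 ± 0.116 for easA, and easC stood below easB in each library.

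The make-up of the eas counts differed most for easC. Of the counts of the 4 eas genes, easC held 12.7%, 15.1% and 15.2% in mcrA-deleted replicates 1 to 3. In WT replicates 2 and 3 it held 4.35% (exact binomial 95% interval 1.20% to 10.8%) and 4.73% (2.07% to 9.11%), and in WT replicate 1 it had 0 of 28 counts, for which the same interval reaches 12.3%. In the mcrA-deleted libraries the lowest bound of the interval was 11.7%, above the upper bounds in WT replicates 2 and 3 but below that in WT replicate 1. Per length, easC was at 1.64, 1.94 and 1.77 times easB in mcrA-deleted replicates 1 to 3 and at 0, 0.579 and 0.668 times easB in WT replicates 1 to 3. The share of easB was 38.2% to 42.3% in the mcrA-deleted libraries and 34.9% to 46.4% in the WT libraries, with overlapping groups. That of easD was 33.0% to 37.8% in the mcrA-deleted libraries and 32.1% to 52.2% in the WT libraries, where WT replicates 2 and 3 were the 2 highest.

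**Figure D2:**
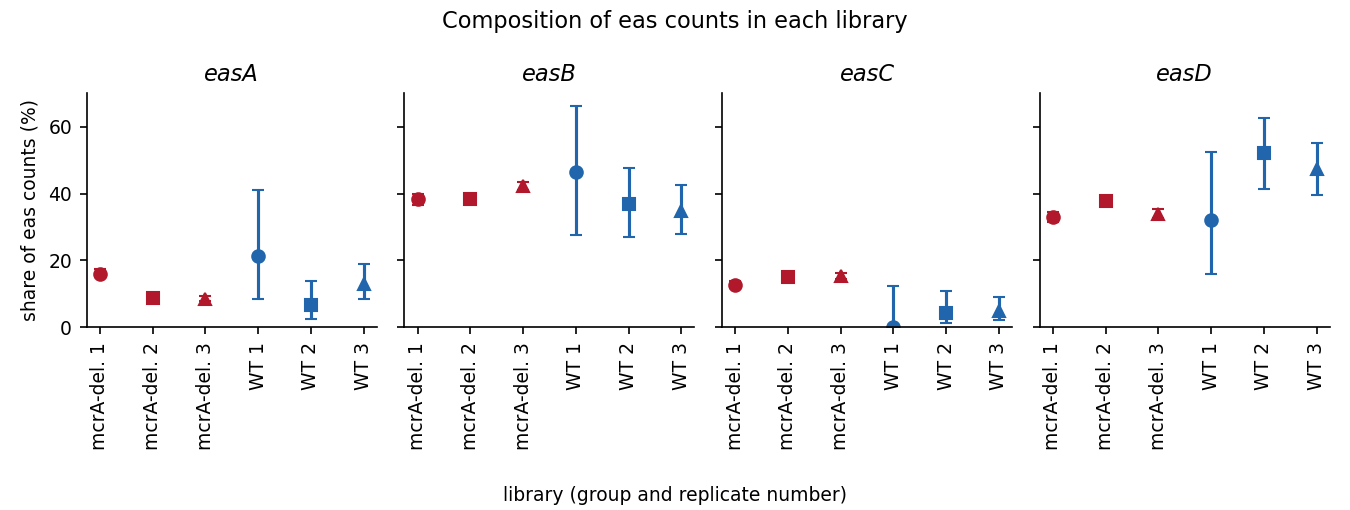
Share of each eas gene in the summed counts of the 4 eas genes, in percent, for the 3 mcrA-deleted and 3 WT libraries; bars are exact binomial 95% intervals and cover counting error only. The easC share is 12.7% to 15.2% in the mcrA-deleted libraries and 0% to 4.73% in the WT libraries.

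The share of easA moved within the mcrA-deleted group. It was 16.0% (14.9% to 17.3%) in mcrA-deleted replicate 1, against 8.66% (7.86% to 9.51%) and 8.49% (7.79% to 9.23%) in replicates 2 and 3. The easA feature, 20944 bases long, is the longest member. The level of easA in mcrA-deleted replicate 1 was 1.86 times the mean of the other 2. Among the 11 other tested features of at least 10000 bases, a length set after the values were seen, 10 were also above that mean in this library, with a median of 1.38 times. The median over the tested features shorter than that was 0.994 times. The part of feature length, or of the mitochondrial share of that library, in the easA result was not tested.

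The profiles of the members over the 6 libraries were compared as a description. Each gene's log2 CPM was centred on its own mean, and its root-mean-square difference from the average profile of the 4 eas genes was taken, with all 4 counted in that average. The difference was 0.109 for easB, 0.356 for easD, 0.523 for easA, 0.581 for easC and 1.39 for AN10325, on the log2 scale. The median over 7847 other tested features was 3.12. Most of this measure is the difference between the strains, for which the members were chosen, so small distances among the eas genes follow from that choice. Between mcrA-deleted replicates, AN10325 in replicate 3 was 5.44 times its level in replicate 1, where easC, easB, easD and easA were at 1.37, 1.27, 1.19 and 0.608 times. AN10325 has few counts and none in WT, so its WT values, and with them its distance from the average profile, depend on the value added to low counts.

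**Figure D3:**
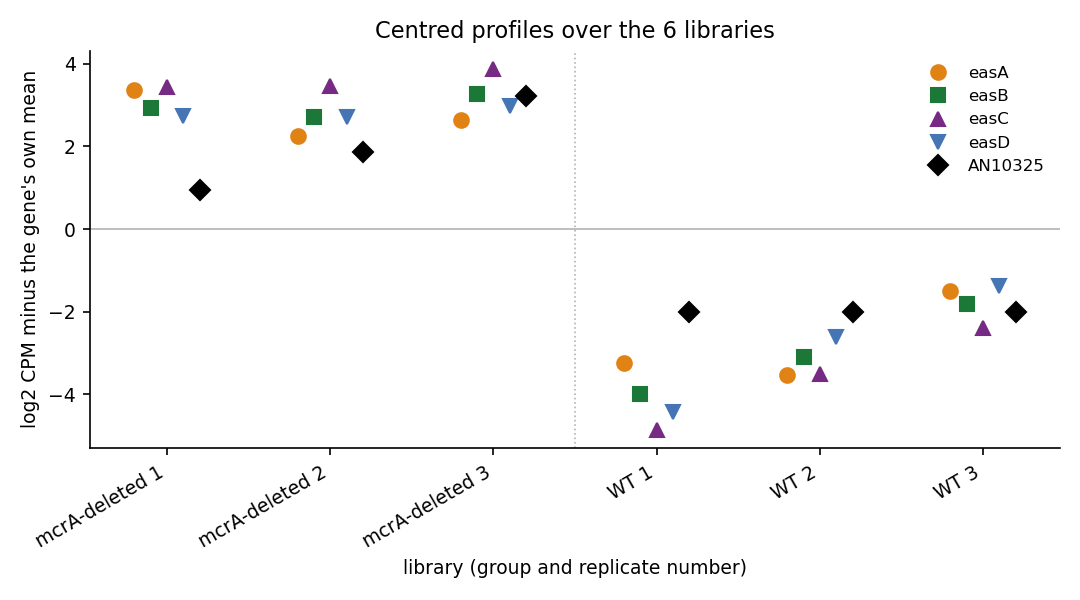
log2 CPM of easA, easB, easC, easD and AN10325 minus each gene's own mean over the 6 libraries, with the mcrA-deleted libraries left of the WT libraries. The eas genes lie between 2.26 and 3.88 in the mcrA-deleted libraries and are highest in WT replicate 3 among the WT libraries. AN10325 lies at 0.940 in mcrA-deleted replicate 1, below the eas genes, and at 3.22 in replicate 3, within their range.

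The features whose profiles lay nearest to the eas average, by the same measure, were AN5665 on chromosome V (0.295), AN11982 on chromosome I (0.381), AN4008 on chromosome II (0.391), and AN7268 (0.403) and AN7264 (0.411), both on chromosome IV. Of the 7847 features, 9 lay nearer than 0.5. Those 9 were thus nearer to the average than easA (0.523) and easC (0.581), which are themselves part of it. AN4008 had 818, 1049 and 1282 counts in mcrA-deleted replicates 1 to 3, and 3, 7 and 20 counts in WT replicates 1 to 3. AN5665 had 185, 197 and 305 counts in the mcrA-deleted libraries and 0, 1 and 3 in the WT libraries. All 5 had their highest WT count in replicate 3, as the eas genes did, but they were picked for a profile with that trait. By level, WT replicate 3 was the highest WT library in 40.7% of all tested features and in 48.9% of those called higher. AN5665, AN4008 and AN7268 each overlapped 1 other annotated feature, so their levels are uncertain to that extent.

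The borders of the members' span were examined in the 10 features on either side, which were taken by position and not by value. To the left, AN2544 ends 128 bases from the easA feature and had 0 counts in all 6 libraries, as did the next features, AN2543 and AN2542. None of the 5 tested features on the left side was called in either direction. These 3 features thus gave no count among the 28308949 of the series, next to an easA feature with 1478 counts over the mcrA-deleted group. Being at 0 in both strains, they do not show where the difference between the strains ends. In single libraries 8512 to 9144 of the 10983 features had any count. AN2550, inside the members' span, also had 0 counts in every library.

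To the right of AN10325 levels differed between the strains over several features. AN10319, 366 bases further on and on the same strand, rose: it was at 21.3 ± 3.63 CPM in the mcrA-deleted libraries and 6.86 ± 1.45 CPM in the WT libraries (log2 fold change 1.64, SE 0.235, with an adjusted p of 0.0034 in the edgeR test). It was higher in 3 of 3 libraries, and it passed under every alternative and with each library left out. AN10320, next to it, had 5, 12 and 33 counts in mcrA-deleted replicates 1 to 3 and 1, 2 and 1 in WT replicates 1 to 3, too few for the test. AN10326 had 3, 6 and 44 counts in the mcrA-deleted libraries and none in WT. Its mean over the mcrA-deleted libraries was at least 18.1-fold above the floor of 3 counts over the WT group. That bound was 4.99-fold without mcrA-deleted replicate 3 and 10.7-fold without WT replicate 2.

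Of the 20 flanking features 10 were tested, and 3 rose and 0 fell, all 3 on the right side, against 16.1% called higher and 13.7% called lower of all tested features. At an unadjusted p under 0.05 there were 3 higher and 2 lower, and the DESeq2 Wald test called the last 2, AN10318 and AN2538, both on the left, lower. The other 2 that rose were AN2554 and AN2557. AN2554 averaged 8.04 ± 1.74 CPM over the mcrA-deleted libraries and 4.03 ± 0.775 CPM in the WT libraries (log2 fold change 1.01, SE 0.291, with an adjusted p of 0.0371 in the edgeR test), and lost its call with any 1 library left out (adjusted p = 0.05 to 0.128). AN2557 had 16, 30 and 141 counts in the mcrA-deleted libraries and none in WT (adjusted p of 0.0158 in the edgeR test). With no WT counts, AN2557 was tested only because of its mcrA-deleted libraries, so its call is a description. Its mean over the mcrA-deleted libraries was at least 64.5-fold above the floor of 3 counts over the WT group. Its bound was 25.65-fold without mcrA-deleted replicate 3 and 38.05-fold without WT replicate 2. It overlaps AN2556 on the other strand, and no source used here says whether strand was used in counting.

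AN10325 was not alone in its uneven level within the mcrA-deleted group. On the right side AN10320, AN10326, AN2553 and AN2557 stood in mcrA-deleted replicate 3 at 4.73, 10.5, 3.76 and 6.31 times their level in replicate 1. On the left side AN10318 and AN2540 were at 4.81 and 4.30 times, the second over 1 count in replicate 1. These features were picked out after their values were seen. Of the 1265 features called higher, 809, or 64.0%, had their highest level in mcrA-deleted replicate 3. A level there of at least 3 times the mean of the other mcrA-deleted libraries was less common. It was seen in 46 of those 1265, or 3.64%, and in 65 of the 7852 tested features, or 0.828%. By that measure AN10325 was at 3.58 times.

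**Figure D4:**
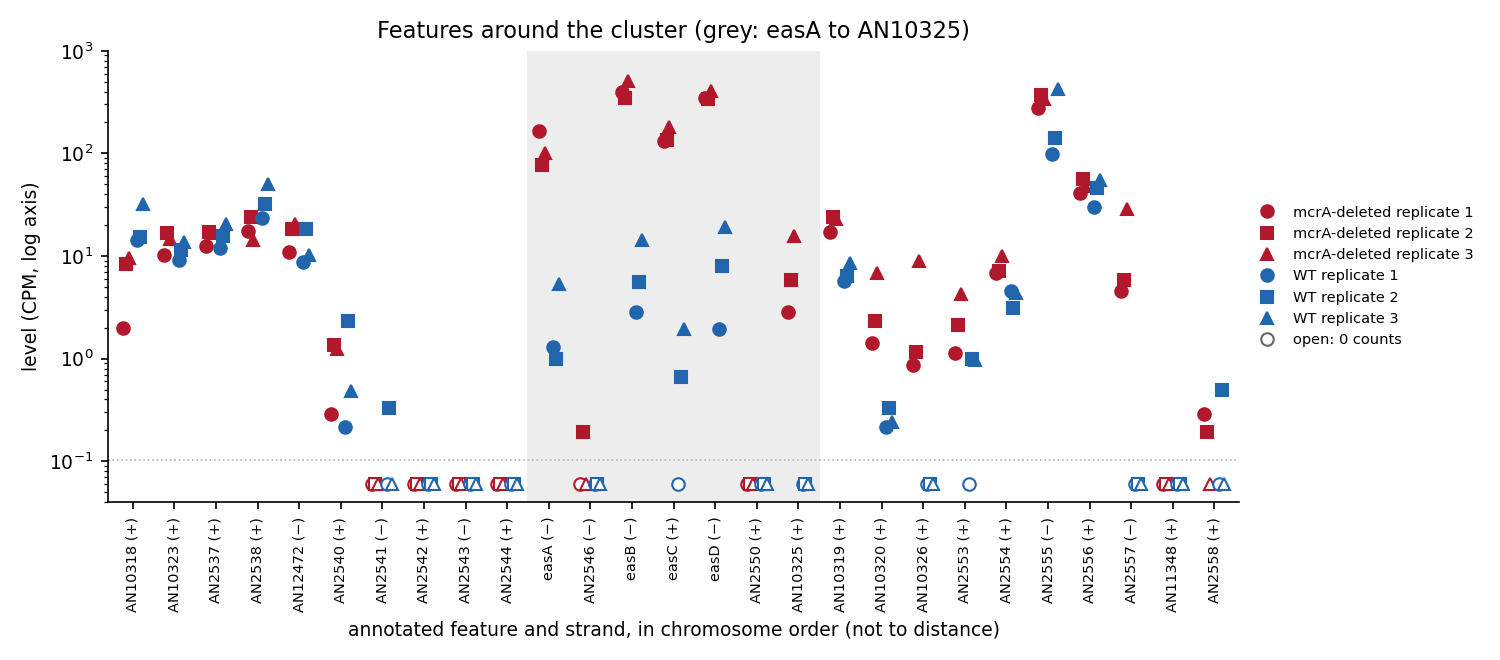
Level in CPM, on a log axis, of the 10 annotated features left of easA, the members with AN2550 (grey), and the 10 features right of AN10325, in chromosome order and not to distance; mcrA-deleted libraries stand left of WT libraries and open symbols are 0 counts. The 3 features left of easA have no counts, and the features from AN10319 to AN2554 have every mcrA-deleted library above every WT library. That was so in 24.9% of all tested features, and AN10320, AN10326 and AN2553 had too few counts to be tested.

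No gene on a list of enzymes that supply such pathways passed the test. The list holds npgA, whose product activates peptide and polyketide synthases, the acetyl-CoA carboxylase gene accA, the ATP citrate lyase genes aclA and aclB, the acetyl-CoA synthetase gene facA, and the primary fatty acid synthase genes fasA and fasB. All 7 were tested and 0 passed in either direction in edgeR's quasi-likelihood test, where 16.1% of all tested features rose and 13.7% fell. At an unadjusted p under 0.05 there was 1, and the DESeq2 Wald test called 1 lower, aclB. The median log2 fold change of the list was -0.06, against 0.00 over all tested features. The most abundant over both strains together, aclA, was at 756.6 ± 112.1 CPM in the mcrA-deleted libraries and 1023 ± 222 CPM in the WT libraries (log2 fold change -0.44, SE 0.211, with an adjusted p of 0.156 in the edgeR test).

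Among 10 global and chromatin regulators of secondary metabolism, all tested, 3 rose, 1 fell and 6 did not pass, where 16.1% of all tested features rose and 13.7% fell. The median log2 fold change was 0.17, against 0.00 over all tested features. The methyltransferase-like regulator gene laeA rose: it was at 59.6 ± 9.19 CPM in the mcrA-deleted libraries and 26.6 ± 6.30 CPM in the WT libraries (log2 fold change 1.16, SE 0.207, with an adjusted p of 0.00703 in the edgeR test). The SUMO gene sumO fell, to 190.2 ± 14.9 CPM in the mcrA-deleted libraries against 313.7 ± 36.2 CPM in the WT libraries (-0.72, SE 0.145, with an adjusted p of 0.0104 in the edgeR test). Both calls held with each library left out. The velvet gene veA (0.52, SE 0.162, with an adjusted p of 0.0469 in the edgeR test) lost its call with any 1 library left out, and the bZIP gene rsmA (0.60, SE 0.164, with an adjusted p of 0.0308 in the edgeR test) with 4 of the 6. The number that rose was 1 without WT replicate 1, WT replicate 2, mcrA-deleted replicate 1 or mcrA-deleted replicate 3. The velvet partner gene velB, over both strains together the most abundant regulator that did not pass, was at 47.4 ± 7.80 CPM in the mcrA-deleted libraries and 44.7 ± 5.51 CPM in the WT libraries.

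Markers of conidiophores and spores, cells that a mycelial culture may hold, were low in all libraries. The summed level of the 7 markers ranged over 26.0 to 43.6 CPM in the mcrA-deleted libraries and over 17.0 to 25.9 CPM in the WT libraries. Of the 4 tested, brlA and wA rose, and yA and rodA did not pass, where 16.1% of all tested features rose. The 2 that did not pass differed in direction. The level of yA was 9.35 ± 2.98 CPM in the mcrA-deleted and 13.8 ± 3.19 CPM in the WT libraries (log2 fold change -0.55, SE 0.297). That of rodA was 3.64 ± 3.02 CPM and 1.19 ± 1.91 CPM (log2 fold change 1.79, SE 1.21). The conidiation regulator gene brlA had 12, 28 and 56 counts in mcrA-deleted replicates 1 to 3 and 1, 2 and 2 in WT replicates 1 to 3 (log2 fold change 4.24, SE 0.647, with an adjusted p of 0.00409 in the edgeR test), or 3.63 without mcrA-deleted replicate 3. In WT it lay below the filter's level of 2.10 CPM, so brlA was tested only because of its mcrA-deleted libraries. The call of wA was lost with 4 of the 6 libraries left out in turn. abaA, wetA and dewA were not tested, and dewA was at 0 in all WT libraries. Like AN10325, brlA was highest in mcrA-deleted replicate 3, at 3.34 times its level in replicate 1. The part of these cells in the levels of the eas genes or AN10325 was not tested.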

How the data were processed

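The deposited files hold raw read counts per annotated feature, 1 file per library, with no normalization, per the file headers. The submitters' processing notes name CASAVA and HISAT (version 1). How reads were counted, with or without strand, and what was done with reads of several hits, is stated in no source used here.

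The counts of all 10983 features were fitted with edgeR 4.0.16 in R 4.3.3 (filterByExpr with minimum count 10, which kept 7852; TMM scaling; quasi-likelihood test, two-sided; Benjamini-Hochberg adjustment over all tested features; threshold 0.05), with genotype as the only term. CPM uses TMM-scaled library sizes; log2 CPM adds a prior count of 2. Bounds against groups with 0 counts divide the mean CPM by 3 counts over the group, and do not cover the spread of that mean between libraries. Intervals are exact (Clopper-Pearson) at 95%. DESeq2 1.42.0, other scalings and filters, a replicate block and leaving out libraries were the alternatives. The scripts were tested on simulated counts. Pairs of replicates differed by 9.97 to 54.1 times sampling noise (chi-square per degree of freedom), so none was merged.

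Members and lists were chosen with earlier results of these data known. Named are the members, mcrA, the 2 nearest flanking features on each side and those called, called genes of the precursor and regulator lists with their most abundant uncalled gene, and the 5 nearest profiles. The conidiation markers named with values, and AN2550, AN2542, AN2540, AN10326, AN2553, AN10318, AN2538, AN2556 and aclB, were added after their values were seen. RefSeq (ASM1142v1) matched all 6 members and gave none a symbol; symbols are background knowledge. With 3 libraries against 3 an exact permutation test cannot go below p = 0.1.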

Additional observations from a re-analysis of the deposited data

How the results depend on the processing

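The 4 eas genes were called higher under all 13 alternatives, and AN10325 under the 12 that tested it; a mean count of at least 50 removed AN10325. Over all features, genes called higher and lower numbered 1265 and 1078 in the main fit, 1265 and 1076 with DESeq2 size factors, 1660 and 639 with library size alone, and 758 to 1496 and 618 to 1171 with 1 library left out. Library size alone gave a median log2 fold change over all features of 0.18 in place of 0.00 and made 72.2% of calls rises, in place of 54.0%. Flanking features called higher numbered 5 without a count filter, 1 with a mean count of at least 50, 5 when both WT replicate 3 and mcrA-deleted replicate 1 were left out, and 2 to 4 with 1 library left out. Flanking features called lower numbered 2 by the DESeq2 Wald test, 1 with the replicate block and 0 to 1 with 1 library left out. Precursor genes called lower numbered 1 by the DESeq2 Wald test and 1 with the replicate block. Regulators called higher numbered 1 to 2 with 1 library left out, and 1 with both of those libraries out. Conidiation markers called higher numbered 0 with a mean count of at least 50 and 1 to 2 with 1 library left out. The log2 fold change of velB, never called, lay between -0.058 and 0.163 with 1 library left out, and changed sign without WT replicate 3 (-0.007) or mcrA-deleted replicate 2. The cause of these shifts was not tested, except that the count filters change which features are tested. Whether the replicate numbers pair the libraries was not settled. Deviations of same-numbered libraries correlated at 0.263, -0.0757 and 0.168 for replicates 1 to 3. Replicates 1 and 3 of the mcrA-deleted strain correlated best with the WT library of the same number. For mcrA-deleted replicate 2 the best was WT replicate 3, at 0.129. With the replicate block 1333 genes were higher and 1170 lower, and 5 members were called higher. The 5 nearest profiles were the same 5 features with library size alone. The mean share of the cluster in all counts was 0.101% to 0.121% with 1 mcrA-deleted library left out. With 1 WT library left out the WT mean was 0.00106%, without WT replicate 3, to 0.00252%, without WT replicate 1. Without AN10325 and AN2546 the means were 0.111% in the mcrA-deleted and 0.00188% in the WT libraries. With nuclear AN-numbered features as the total they were 0.1125% and 0.00188%. AN2546, AN10320 and AN10326 had too few counts to be tested.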
